A study of Mus musculus with 4 samples.

Results

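The smooth muscle contractile genes of mammary epithelium were followed through single-cell RNA sequencing of mouse mammary organoids. The set held 10 listed genes (Acta2, Tagln, Cnn1, Myh11, Mylk, Myl9, Actg2, Tpm2, Lmod1 and Oxtr) among all genes counted, and all 10 had counts. Organoids came from mammary glands of virgin female mice, either wild type or carrying 1 truncated germline copy of Brca2 (Brca2mut/WT), and were left untreated (control) or exposed to hydroxyurea (HU, 1 mM for 24 h), which stalls DNA replication; in the study's prolonged cultures this exposure was repeated at successive passages. The 4 combinations (wild-type control, wild-type HU, Brca2mut/WT control, Brca2mut/WT HU) gave 1 droplet library each, and the labels give 2 replicates per library, while the study's text gives another number of mice. The study sampled culture passages 0 and 4, and the labels do not tie a passage to a library; the study used glands of aged mice for its organoid experiments. All organoids were grown in Matrigel, frozen, thawed and cultured again before dissociation.

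Contraction of smooth muscle rests on a ladder of proteins that these genes encode. Oxytocin binds its receptor Oxtr on the cell surface, calcium rises and calmodulin switches on myosin light chain kinase (Mylk), which phosphorylates the regulatory light chain Myl9 so that the smooth muscle myosin heavy chain Myh11 pulls on filaments of the actins Acta2 and Actg2. Tropomyosin Tpm2, calponin Cnn1 and transgelin (Tagln) lie along those filaments, and leiomodin Lmod1 starts new ones. In the mammary gland the contractile cells are the myoepithelial cells of the outer, basal layer, which squeeze milk out of the alveoli. Many of the genes are switched on through serum response factor (SRF), which binds a DNA element named the CArG box together with myocardin-family partners.

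The genes lie on 7 chromosomes of GRCm38. Acta2 (ENSMUSG00000035783) is at chr19:34241090-34255590, Tagln (ENSMUSG00000032085) at chr9:45929619-45936058, Cnn1 (ENSMUSG00000001349) at chr9:22099216-22109630, Myh11 (ENSMUSG00000018830) at chr16:14194535-14291372 and Mylk (ENSMUSG00000022836) at chr16:34745210-35002420. Myl9 (ENSMUSG00000067818) is at chr2:156775420-156781658, Actg2 (ENSMUSG00000059430) at chr6:83512905-83536265, Tpm2 (ENSMUSG00000028464) at chr4:43514711-43523765, Lmod1 (ENSMUSG00000048096) at chr1:135324807-135368065 and Oxtr (ENSMUSG00000049112) at chr6:112473683-112489943. RefSeq promoters (GRCm38.p6) were matched for 7 of the 10 genes, all but Tagln, Myh11 and Actg2. The 250 bases before 1 annotated start per gene were searched on both strands. For Mylk this window, chr16:34784700-34784949, lay inside the locus given above, so its start is an internal one. An exact CArG box stood in 1 of the 7, that of Myl9, and in 1.47% of all 32851 promoter windows. A CArG-like box, with 1 C or G among the inner letters, stood in Myl9 and, at 2 places, in Acta2, and in 7.25% of all windows. The M-CAT motif CATTCC, which TEAD factors bind, was in Acta2, Mylk and Lmod1 and in 12.6% of all windows. None of the 3 motifs was found in the windows of Cnn1, Tpm2 or Oxtr, which says only that these letters are not there. The stretches below are those of the pair of genes most closely correlated between basal cells, Acta2 and Myl9, and of Lmod1. Unlike them, Lmod1 was lower in basal than in HR- luminal cells. Capitals mark the motifs, and both stretches of Acta2 are exonic in GENCODE M21.
Myl9, CArG box and CArG-like box, chr2:156775293-156775384, plus strand: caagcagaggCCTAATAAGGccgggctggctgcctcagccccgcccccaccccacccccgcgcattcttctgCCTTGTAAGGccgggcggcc
Acta2, distal CArG-like box, chr19:34255438-34255467, minus strand: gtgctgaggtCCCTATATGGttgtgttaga
Acta2, proximal CArG-like box, chr19:34255388-34255417, minus strand: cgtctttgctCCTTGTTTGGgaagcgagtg
Lmod1, M-CAT on the opposite strand, chr1:135324623-135324722, plus strand: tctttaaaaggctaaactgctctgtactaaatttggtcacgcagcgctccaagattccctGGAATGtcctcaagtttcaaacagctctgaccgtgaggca

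The 4 libraries held 33268 cells, of which 17360 (3293 to 5312 per library) passed the filter of 1000 to 6000 detected genes and under 5% mitochondrial UMIs, with a median of 24180 to 26893 UMIs (unique molecular identifiers, counted molecules) per cell. Levels are the UMIs of a gene within 1 class and library, given as CPM, its share of all gene UMIs there scaled to 1e+06; since the libraries read the 3' ends of transcripts, a level is compared with other levels of the same gene only. Basal cells were those with Krt14 at 500 CPM or more and Areg under 300 CPM, hormone receptor-positive (HR+) luminal cells those with Areg at 300 CPM or more and Krt14 under 500 CPM, and hormone receptor-negative (HR-) luminal cells those with both under 300 CPM. This gave 2217 basal cells (320 to 868 per library), 569 HR+ luminal cells (123 to 176) and 14008 HR- luminal cells (2750 to 4209), and left 457 cells with Krt14 of 300 to 500 CPM and 109 cells high in both genes outside the lineages. Between 59 and 129 cells per library had Krt14 within 400 to 600 CPM, close to the threshold, and 3 to 11 cell barcodes were shared by any pair of libraries. The 9 markers of vascular smooth muscle and pericytes summed to 20.2 to 26.3 CPM in basal and 23.8 to 26.1 CPM in HR- luminal cells, mostly from Notch3 (12.8 to 21.4 and 21.8 to 24.1 CPM). Of the others, Mcam (2.24 to 5.33 CPM in basal cells, log2 difference 2.14, edgeR adjusted p = 7.16e-05) and Pdgfrb (0.894 to 2.25 CPM, 1.29, adjusted p = 0.00468) were higher in basal than in HR- luminal cells, while Rgs5, Des, Cspg4, Kcnj8, Abcc9 and Higd1b were at 0.447 CPM or less in basal cells of every library. Their part in the results was not tested. Immune markers (Ptprc, Tyrobp) had no UMI in either lineage, endothelial markers summed to 1.26 CPM at most and fibroblast markers to 18.9 CPM at most. In the HR+ luminal class 1 fibroblast marker, Dcn, was at 702 to 1661 CPM and the other 5 at 0.732 CPM or less, and the 6 HR+ markers (Prlr, Pgr, Foxa1, Esr1, Cited1, Prom1) summed to 1492 to 1702 CPM, against 102 to 112 CPM in the HR- class.

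Basal cells carried more of 9 of the 10 contractile genes than HR- luminal cells, and less of 1. The comparison asked which lineage expressed the set, with the 4 libraries as replicates. In this order (wild-type control, wild-type HU, Brca2mut/WT control, Brca2mut/WT HU), which all series of 4 values keep, Acta2 stood at 327, 629, 916 and 835 CPM in basal cells and at 41.6, 50.3, 47.9 and 75.4 CPM in HR- luminal cells. Every basal value was above every HR- luminal value, and the log2 difference was 3.45 ± 0.19 (SE, 4 libraries, edgeR adjusted p = 1.31e-06). Tagln had 139, 226, 313 and 273 CPM in basal cells and 3.89, 5.21, 5.91 and 7.49 CPM in HR- luminal cells (log2 difference 5.24 ± 0.11, adjusted p = 1.85e-08). This was the widest separation among the 10 genes.

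The other filament genes followed. Cnn1 had 10.9, 29.6, 42.6 and 37.2 CPM in basal cells and 0.799, 1.33, 1.35 and 2.07 CPM in HR- luminal cells (log2 difference 4.24 ± 0.18, adjusted p = 3.96e-07). Tpm2 had 674, 815, 890 and 1001 CPM in basal cells against 107, 114, 95.05 and 117 CPM (log2 difference 2.82 ± 0.10, adjusted p = 1.38e-07). Basal Tpm2 varied least of the set between libraries, from its lowest to its highest value by less than the ratio of any other gene. Actg2, the enteric smooth muscle actin, had 0.192, 1.88, 9.54 and 2.53 CPM in basal cells, and no HR- luminal value passed 0.186 CPM (log2 difference 4.32 ± 0.77, adjusted p = 0.00135). It rested on few molecules, and in the Brca2mut/WT control 60 of its 64 basal UMIs came from 1 cell.

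Among the motor genes, Myh11 had 4.10, 19.8, 33.4 and 19.9 CPM in basal cells and 0.482, 0.664, 0.705 and 1.59 CPM in HR- luminal cells (log2 difference 4.23 ± 0.37, adjusted p = 2.06e-05). Myl9 had 78.4, 110, 151 and 162 CPM in basal cells and 13.8, 17.9, 14.9 and 29.7 CPM in HR- luminal cells (log2 difference 2.59 ± 0.14, adjusted p = 1.57e-06). The kinase Mylk was different, with 8.66, 28.8, 22.9 and 25.4 CPM in basal cells against 11.6, 11.7, 11.1 and 10.5 CPM in HR- luminal cells. Its basal level was the lower one in the wild-type control, and the log2 difference of 0.70 ± 0.26 (adjusted p = 0.0417) lost its call without the wild-type HU library (0.53, adjusted p = 0.147), without the Brca2mut/WT control (0.63, 0.129) and without Brca2mut/WT HU (0.56, 0.158). Oxtr, the receptor, had 9.24, 11.2, 19.2 and 21.2 CPM in basal cells and 7.13, 8.07, 7.35 and 8.53 CPM in HR- luminal cells (log2 difference 0.74 ± 0.18, adjusted p = 0.00804). With stricter lineage thresholds, the calls of both Mylk and Oxtr were lost (adjusted p = 0.182 and 0.0541). These asked for Krt14 at 1000 CPM or more in basal cells. They also raised the Areg level for HR+ cells and lowered the Krt14 and Areg limits of the HR- class.

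Lmod1 went the other way. It had 4.62, 3.81, 7.004 and 6.74 CPM in basal cells and 19.9, 5.78, 44.4 and 23.5 CPM in HR- luminal cells, and its log2 difference was -1.94 ± 0.27 (adjusted p = 3.07e-04). Over all genes tested, 31.4% of 15614 were called higher and 32.0% lower in basal cells, so a call alone is common here. The median log2 difference was 3.14 over the 10 genes and -0.01 over all genes.

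**Figure D1:**
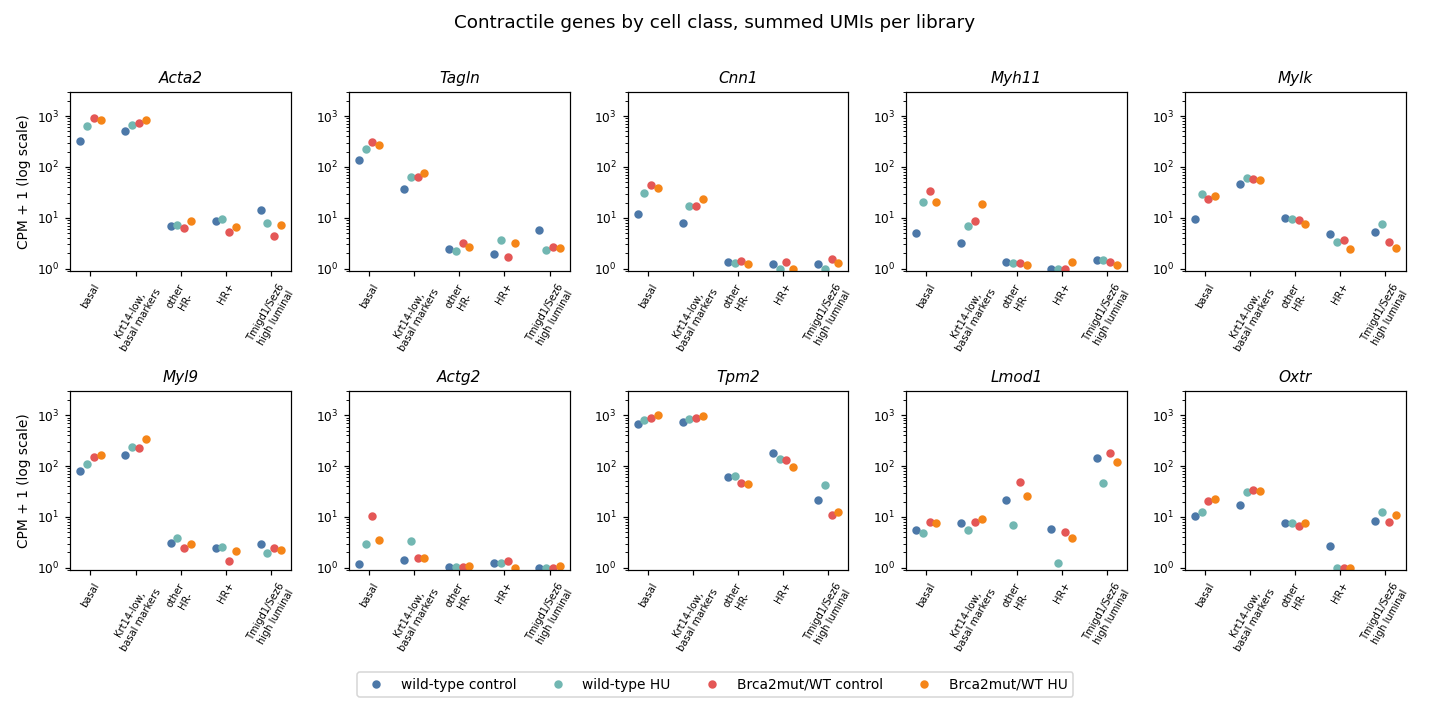
Summed level of each contractile gene by cell class, as CPM + 1 on a log scale, 1 point per library (n = 4). Acta2, Tagln, Cnn1, Myh11 and Myl9 are high in basal cells and in Krt14-low cells with basal markers, whereas Lmod1 is highest in the Tmigd1/Sez6-high luminal cells, at 45.6 to 179 CPM.

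The HR- luminal class held a second group of cells with contractile genes. Between 263 and 383 of its cells per library, 7.60% to 9.56%, had 7 other basal markers (Trp63, Id4, Pdpn, Vim, Col17a1, Sparc and Snai2) at 500 CPM or more in sum while their Krt14 stayed under 300 CPM. Such cells held 87.0%, 88.3%, 89.8% and 90.8% of the Acta2 UMIs of the class and 85.4% to 94.2% of its Myl9 UMIs. Of the 7 markers, Sparc (488 to 697 CPM in basal cells) had a correlation of 0.59 with the contractile set across basal cells. The shares, and the levels that follow, are therefore not independent of the choice of these cells. Their Acta2 was 509, 678, 720 and 845 CPM, above the basal level of the same library in 3 and below it in the Brca2mut/WT control, and their Myl9, at 166, 234, 228 and 345 CPM, was above the basal level of the same library in all 4. Mylk, at 45.2, 60.3, 56.3 and 54.5 CPM, and Oxtr, at 16.3, 29.3, 32.5 and 31.3 CPM, were also above the basal class in every library. The comparison changed with only those basal cells that had Krt14 under 5000 CPM. Their Acta2, at 691, 1312, 1627 and 1370 CPM, was above that of the Krt14-low cells in all 4 libraries. Their Oxtr, at 16.9, 22.7, 33.2 and 32.6 CPM, was above it in all but wild-type HU. Their Myl9 (159, 218, 254 and 265 CPM) was above it only in the Brca2mut/WT control, and their Mylk (17.8, 57.8, 39.1 and 42.2 CPM) in none. Tagln was lower than in the basal class in all 4 libraries, at 35.9, 62.4, 63.4 and 73.7 CPM, and so was Cnn1, at 6.78, 16.2, 16.05 and 22.9 CPM.

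By Krt5 and Csn3, which were not among the 7 markers that chose them, these Krt14-low cells lay between the lineages, but not by every marker. Low Krt14 also chose them, and whether their Krt5 is independent of that choice was not tested. The basal keratin Krt5 was at 92.6 to 124 CPM in them, against 1822 to 2861 CPM in the basal class and 9.06 to 29.4 CPM in the remaining HR- luminal cells. The milk protein gene Csn3 was at 11960 to 15049 CPM, against 1205 to 1790 CPM in the basal class and 18699 to 21962 CPM in the others. The 6 HR+ markers summed to 29.0 to 41.2 CPM in them, against 37.6 to 61.7 CPM in the basal class and 107 to 117 CPM in the others. The luminal markers Krt8, Krt18, Krt19 and Epcam summed to 2073 to 3026 CPM in the basal class and 5078 to 5382 CPM in the others. The Krt14-low cells, at 2405 to 2992 CPM, were within the basal range. Their median depth was 17849 to 21461 UMIs, below that of the HR- class (24718 to 27596), and whether droplets with more than 1 cell or free RNA add to this mixture was not tested. They were set aside after their values had been seen, so the difference between basal and the remaining HR- luminal cells is given without a test. It was 6.53 for Acta2, 1.18 for Mylk and 1.03 for Oxtr on the log2 scale, each larger than with all HR- luminal cells. In the remaining HR- luminal cells Acta2 was at 5.18 to 7.52 CPM and Myl9 at 1.40 to 2.80 CPM.

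In most cells of the basal class few of the contractile genes were detected at this depth. With every basal cell of at least 10000 UMIs thinned to that depth, 595, 778, 278 and 275 cells were left, and their median number of contractile genes with a UMI was 1, 1, 1 and 2. Without Tpm2 the median summed count of the other 9 was 0, 0, 0 and 1 UMI. Only 16.5%, 20.8%, 20.5% and 33.8% of cells had 3 or more of the genes, and 5.38%, 9.77%, 10.1% and 15.3% had 5 or more. Thinned to 5000 UMIs, Acta2 was detected in 15.1% (95% Clopper-Pearson interval 12.4 to 18.1), 22.3% (19.5 to 25.4), 19.6% (15.2 to 24.6) and 31.2% (25.9 to 37.0) of basal cells, compared with 0.885% to 4.43% of HR+ luminal cells, whose median depth was 24996 to 27292.5 UMIs before thinning, against 20026 to 22130 in basal cells. Without thinning the basal shares were 23.3%, 33.5%, 24.4% and 41.2%. Tpm2, in contrast, was detected in 81.6%, 83.5%, 85.5% and 92.0% of thinned basal cells.

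The UMIs were accordingly concentrated. The 10% of basal cells with the most Acta2 UMIs held 96.8%, 91.3%, 95.8% and 74.3% of all basal Acta2 UMIs, and by the same measure the share was 91.2% to 99.6% for Tagln but 41.8% to 46.5% for Tpm2. Cells with Acta2 at 300 CPM or more made up 10.9%, 16.4%, 13.4% and 25.6% of the basal class.

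**Figure D2:**
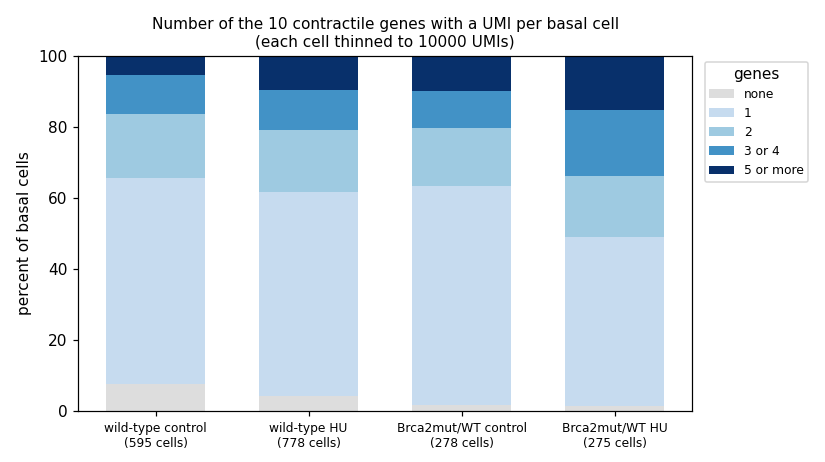
Share of basal cells by the number of the 10 contractile genes with at least 1 UMI, each cell thinned to 10000 UMIs, 1 bar per library. Cells with 1 gene make up 47.6% to 61.5% of each bar, and cells with 5 or more reach 15.3% in Brca2mut/WT HU.

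Across single basal cells the genes varied together. The log counts of Acta2 and Myl9 had a Pearson correlation of 0.82 as the mean of the 4 libraries (0.80 to 0.86), Acta2 and Tagln of 0.75, and Cnn1 and Myh11 of 0.62. Against the sum of the other 9 genes, the correlation was 0.76 for Myl9, 0.73 for Acta2, 0.65 for Tagln and for Tpm2, 0.53 for Cnn1, 0.45 for Myh11 and for Mylk, 0.32 for Oxtr, 0.27 for Lmod1 and 0.19 for Actg2, in 275 to 778 cells per library that share library and thinned depth. Thus within the basal class Lmod1 had a positive sign like the rest. The weakest pair was Actg2 and Oxtr, at 0.01. Of 6925 other genes with a UMI in at least 10% of the cells, those most like the summed set were Myl6 (0.60), a myosin light chain, Sparc (0.59), a matrix protein, Palld (0.59), an actin-bundling protein of stress fibres, Cotl1 (0.54), which binds actin, and Cnn2 (0.53), a calponin. Those least like it were Lgals3 (-0.49), a galectin, Epcam (-0.41), an epithelial adhesion molecule, Ly6d (-0.40), a surface protein, Rab25 (-0.35), an epithelial trafficking GTPase, and Sdc1 (-0.32), a syndecan. The correlation of Krt14 with the set was -0.31, and -0.33 to -0.30 by library.

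Basal cells with the most Krt14 had the least of the contractile genes. Where Krt14 was 1000 to 2000 CPM, Acta2 was at 895, 1572, 1688 and 1931 CPM, and at 5000 to 10000 CPM of Krt14 it was at 158, 254, 36.3 and 267 CPM. At 20000 CPM of Krt14 or more it was 7.29, 4.84, 6.65 and 1.43 CPM, near the 4.29 to 8.40 CPM of HR+ luminal cells. Tagln went from 346, 583, 555 and 711 CPM at 1000 to 2000 CPM of Krt14 to at most 1.32 CPM at 20000 or more. Tpm2 declined far less, from 1074, 1322, 1332 and 1739 CPM to 448, 507, 423 and 683 CPM. Between 2000 and 5000 CPM of Krt14 the libraries lay far apart, with Acta2 at 285 CPM in the wild-type control and 2352 CPM in the Brca2mut/WT control.

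Cells with squamous keratinization genes (Krt10, Krt1, Krtdap, Sbsn, Sprr1a and Krt6a at 1000 CPM or more in sum) were 24.8%, 14.7%, 15.6% and 10.0% of the basal class. Their Acta2 was 8.60, 10.5, 57.0 and 4.02 CPM, Myh11 and Actg2 had no UMI in them, and Tpm2 stayed at 415, 476, 398 and 500 CPM. Without the squamous cells basal Acta2 was 477, 750, 1122 and 970 CPM, in the same order of libraries as with them.

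**Figure D3:**
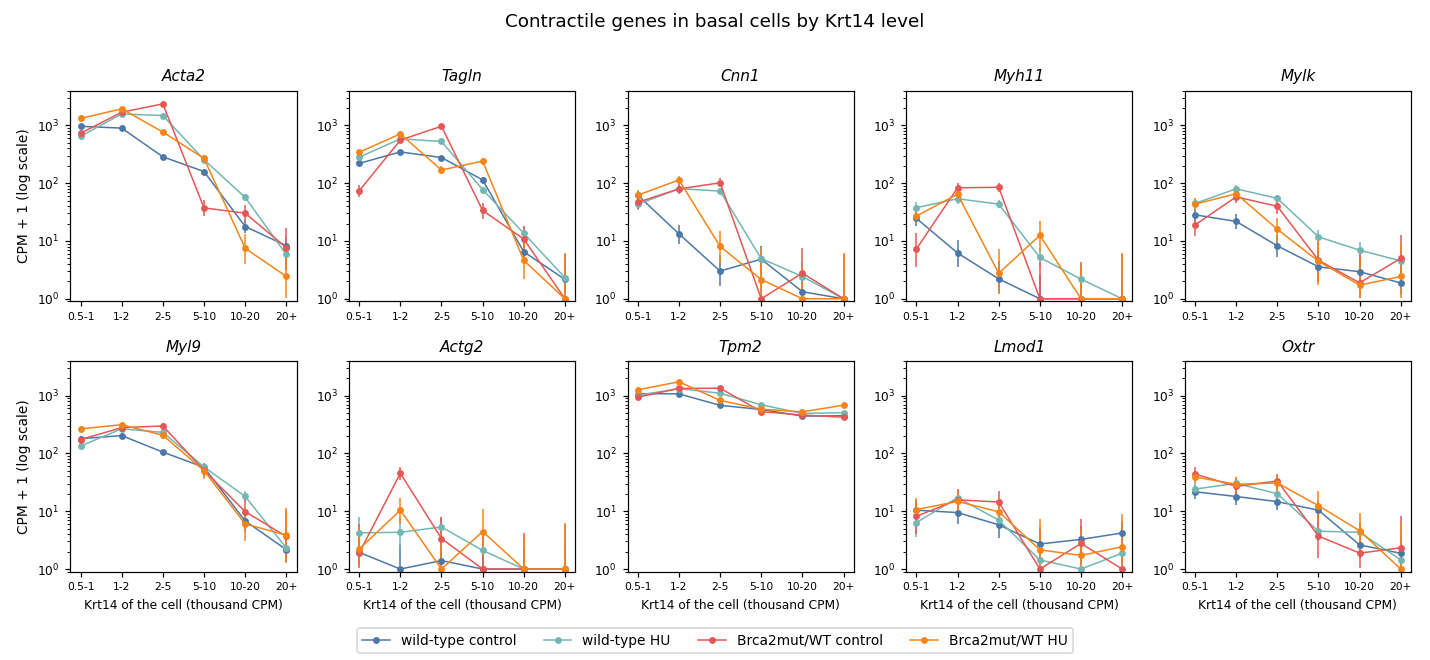
Level of each contractile gene, as CPM + 1 on a log scale with 95% Poisson intervals, in basal cells grouped by the Krt14 level of the cell, 1 line per library. Acta2 goes from 648 to 2352 CPM, apart from 285 CPM in 1 library, below 5000 CPM of Krt14 to 1.43 to 7.29 CPM at 20000 CPM or more, whereas Tpm2 stays at 423 CPM or above.

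Dividing basal cells had less of the set. Basal cells with Mki67 and Top2a at 100 CPM or more in sum, 92, 155, 31 and 36 cells, were compared with the other basal cells of the same library. Acta2 was at 88.6, 244, 421 and 658 CPM in cycling cells and 359, 733, 989 and 860 CPM in the others, lower in 4 of 4 libraries (log2 difference -1.30 ± 0.15, adjusted p = 1.39e-06). Cnn1 had 0.530, 3.66, 26.8 and 6.98 CPM against 12.3, 36.7, 44.9 and 41.3 CPM (-2.40 ± 0.29, adjusted p = 3.11e-06), and Mylk 3.18, 8.53, 9.31 and 6.98 CPM against 9.41, 34.3, 25.0 and 27.9 CPM (-1.86 ± 0.19, adjusted p = 2.31e-07). Tagln was lower in cycling cells of 3 libraries, at 18.6, 14.4 and 25.6 CPM against 156, 284 and 355 CPM, and higher in Brca2mut/WT HU, at 325 against 266 CPM (-2.29 ± 0.45, adjusted p = 5.86e-04). In all, 8 of the 10 genes were called lower and none higher, against 16.5% lower and 17.2% higher of 12103 genes; the median log2 difference was -1.25 over the 10 genes and -0.05 over all. Of the called genes Tpm2 had the smallest difference (-0.37 ± 0.07, adjusted p = 2.98e-04). Actg2 and Lmod1 were not called (-0.82 and -0.74, adjusted p = 0.324 and 0.224). Without the library as a block 4 genes, Cnn1, Mylk, Myl9 and Tpm2, passed. Myh11 (-1.31, adjusted p = 0.0315) was no longer called without the wild-type HU library (-0.39, 0.583) or the Brca2mut/WT control (-1.16, 0.151). It also lost its call with DESeq2 (adjusted p = 0.155), with the stricter lineage thresholds (0.0697) or without squamous cells (0.0510).

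HR+ luminal cells had little of the set apart from Tpm2. Acta2 was at 7.58, 8.40, 4.29 and 5.49 CPM, Myl9 at 0.330 to 1.58 CPM and Tagln at 0.660 to 2.63 CPM. Oxtr had UMIs in 1 library, at 1.66 CPM, and none in the other 3, and its log2 difference from the HR- class was -4.14 ± 0.55 (adjusted p = 9.73e-05). Of 9 genes tested (Actg2 had too few counts), 8 were lower in HR+ than in HR- luminal cells and none higher, against 31.4% lower and 27.2% higher of 15226 genes; the medians were -3.18 and -0.10. Tpm2 was at 180, 137, 132 and 95.6 CPM in HR+ cells and did not pass (0.11 ± 0.13, adjusted p = 0.503). With the Krt14-low basal-marker cells removed from the HR- class, the log2 difference was -0.13 for Acta2 and -0.21 for Tagln. Mylk (-1.84), Myl9 (-1.10), Lmod1 (-3.17) and Oxtr (-3.88) kept differences beyond 1 log2 unit, and Tpm2 was at 1.14. Cnn1 (-1.36 ± 0.93) and Myh11 (-2.11 ± 1.25) had wide errors and were at 0.418 CPM or less in both classes of every library. With all HR- cells, the call of Tagln was lost with the wider cell filter (-0.64, adjusted p = 0.107) and that of Myh11 with the stricter lineage thresholds (-1.74, 0.0818). Tpm2 was called higher with the wider filter (0.65, 5.71e-04) and without Brca2mut/WT HU (0.30, 0.0250).

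Lmod1 had its highest level in a luminal population marked by Tmigd1 and Sez6. What share of all luminal Lmod1 UMIs these cells held was not counted. Luminal cells with these genes at 150 CPM or more in sum numbered 301, 79, 804 and 431. Lmod1 stood at 143, 45.6, 179 and 121 CPM in them, against 8.96, 4.55, 7.76 and 7.16 CPM in the other luminal cells. Every value of the first group was above every value of the second, and the log2 difference was 3.93 ± 0.15 (adjusted p = 2.46e-07). Basal cells had 4.62, 3.81, 7.004 and 6.74 CPM of Lmod1, nearer to the other luminal cells than to the Tmigd1/Sez6-high cells. Thinned to 5000 UMIs, 33.6%, 13.9%, 39.4% and 31.8% of the Tmigd1/Sez6-high cells had a Lmod1 UMI, compared with 3.23%, 1.97%, 2.83% and 3.74% of the other luminal cells. The Lmod1 level of the whole HR- class followed the share of these cells among all kept cells of the library, which was 5.67%, 1.71%, 19.4% and 13.1%, the lowest and the highest of both being wild-type HU and the Brca2mut/WT control.

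No other contractile gene was called higher in those cells. Tpm2 was at 20.4, 40.5, 9.76 and 11.7 CPM in them and 117, 117, 119 and 133 CPM in the other luminal cells (log2 difference -2.97 ± 0.29, adjusted p = 4.88e-05), and Mylk was at 4.32, 6.45, 2.28 and 1.59 CPM against 11.8, 11.4, 13.0004 and 11.5 CPM (-2.15 ± 0.27, adjusted p = 1.92e-04). Of 9 genes tested, 7 were lower and 1 higher, against 20.7% lower and 18.0% higher of 15026 genes, with medians of -2.15 and -0.0048. Oxtr, at 7.44, 11.5, 6.89 and 9.75 CPM against 6.87, 7.64, 7.15 and 7.97 CPM, was not called (0.08 ± 0.14, adjusted p = 0.922). With the Krt14-low basal-marker cells set aside, Lmod1 kept a log2 difference of 3.91 and Tpm2 of -2.15 and Mylk of -1.68, but Acta2 went from -3.21 to -0.46 and Tagln from -1.46 to -0.27, and Oxtr was at 0.41. The calls of Tagln and Myh11 were also lost without the Brca2mut/WT control (adjusted p = 0.0943 and 0.0962) and without Brca2mut/WT HU (0.0914 and 0.311). That of Myh11 was also lost with the stricter (0.0812) and the looser (0.0838) lineage thresholds, with DESeq2 (0.118) and without the library as a block (0.0818). The looser thresholds lowered Krt14 for basal cells, Areg for HR+ cells and both limits of the HR- class.

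Regulators and partners of the contractile genes were read from 3 further lists. Of 8 genes listed as regulators linked to SRF and myocardin, 7 were tested. Myocd was not, and had no UMI in basal cells of any library. Of the 7, 4 were higher and 1 lower in basal than in HR- luminal cells (median log2 difference 0.86, all genes -0.01). Over all 15614 genes, the background for all 3 lists, 31.4% were higher and 32.0% lower. Srf itself, at 7.18 to 8.70 CPM in basal and 7.69 to 8.65 CPM in HR- luminal cells, was not called (-0.22 ± 0.10, edgeR adjusted p = 0.0738). Fhl2, a LIM-domain cofactor, had 78.5 to 86.7 CPM in basal and 8.98 to 11.2 CPM in HR- luminal cells (2.84 ± 0.07, adjusted p = 4.19e-08). Trp63, the basal lineage factor that also served in setting the basal-marker cells apart, had 54.4 to 76.9 against 8.64 to 10.7 CPM (2.63 ± 0.12, adjusted p = 4.83e-07). The SRF partner Mrtfa had 10.7 to 12.4 against 3.95 to 4.71 CPM (1.28 ± 0.10, adjusted p = 1.35e-05), and its relative Mrtfb was lower in basal cells, 15.6 to 18.4 against 20.6 to 22.7 CPM (-0.50 ± 0.07, adjusted p = 4.80e-04). Fhl2 and Mrtfa were also higher in HR+ than in HR- luminal cells. Fhl2 was at 58.1 to 107 CPM in HR+ cells (2.72 ± 0.11, edgeR adjusted p = 1.77e-08) and Mrtfa at 9.45 to 15.5 CPM (1.23 ± 0.16, adjusted p = 9.72e-05). Of the 7, 2 were higher and 3 lower in HR+ cells, beside 27.2% higher and 31.4% lower of 15226 genes. In cycling basal cells 0 of the 7 were called by edgeR, beside 17.2% higher and 16.5% lower of 12103 genes.

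Of 23 other smooth muscle and actin cytoskeleton genes, 17 were higher and 4 lower in basal cells (median 0.66, all genes -0.01). Smoothelin Smtn had 43.2 to 55.4 CPM in basal and 9.85 to 11.8 CPM in HR- luminal cells (2.08 ± 0.10, adjusted p = 7.72e-07), the crosslinker Actn1 180 to 202 against 43.5 to 49.1 CPM (1.96 ± 0.06, adjusted p = 9.41e-08), and caldesmon Cald1 679 to 862 against 196 to 257 CPM (1.61 ± 0.12, adjusted p = 8.86e-06). The non-muscle myosin Myh10 was the most reduced, at 8.05 to 16.001 against 30.3 to 38.5 CPM (-1.72 ± 0.16, adjusted p = 2.69e-05). Of 18 genes between the oxytocin receptor and myosin, in contrast, 3 were higher and 11 lower in basal cells (median -0.61, all genes -0.01). The phospholipase Plcb4 was at 2.92 to 5.33 CPM in basal cells and 23.7 to 76.6 CPM in HR- luminal cells (-3.33 ± 0.19, adjusted p = 2.09e-06). Like Lmod1, Plcb4 was higher in the Tmigd1/Sez6-high than in the other luminal cells (2.64 ± 0.14, edgeR adjusted p = 1.41e-06).

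Between conditions there was 1 library each, so differences in basal cells are given as log2 ratios of CPM with 95% intervals that cover counting error only, and no test was made. A gene was counted where it passed 1.5-fold with at least 10 CPM in 1 of the pair; 8 of the 10 genes reached that level in each pair, and Actg2 and Lmod1 did not. The wild-type control had the lowest basal level of the 4 libraries for 9 of the 10 genes, all but Lmod1, and each library enters 2 of the 4 comparisons. How many of all genes were lowest in this library was not counted. In wild-type cells 5 genes were past 1.5-fold higher after HU and 0 lower, against 3.18% and 3.81% of 8214 genes. Myh11 was higher by 2.27 (1.88 to 2.68) on the log2 scale, Mylk by 1.73 (1.46 to 2.02), Cnn1 by 1.44 (1.19 to 1.70), Acta2 by 0.94 (0.90 to 0.99) and Tagln by 0.70 (0.63 to 0.78). Myl9 (0.48), Tpm2 (0.27) and Oxtr (0.28) stayed within 1.5-fold. With the wider cell filter, which keeps cells of over 6000 genes or up to 10% mitochondrial UMIs, the 2 wild-type libraries had 1134 and 1357 basal cells. Of the set, 2 genes were then past 1.5-fold and Tagln was level (-0.08). The share over all genes is not given for this filter. With it the wild-type control was not the lowest for Tagln (212 CPM, against 201 CPM in wild-type HU) or Actg2 (4.31 against 3.15 CPM).

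In Brca2mut/WT cells 0 genes were past 1.5-fold higher after HU and 1, Myh11, was lower (-0.74, -1.06 to -0.43), against 2.17% and 2.60% of 8201 genes. Acta2 (-0.13, -0.18 to -0.08), Tagln (-0.19) and Cnn1 (-0.20) were slightly lower and Mylk (0.15), Myl9 (0.10), Tpm2 (0.17) and Oxtr (0.14) slightly higher. The wider filter turned these about: with 490 and 550 basal cells, Tagln was at 243 and 569 CPM, Acta2 at 628 and 1010 CPM and Myh11 at 23.7 and 33.4 CPM, and 3 genes were past 1.5-fold higher. Without the fourth antibody tag pool of the Brca2mut/WT control the log2 ratio of Myh11 was 0.63, and 3 genes were past 1.5-fold higher. For neither setting is the share over all genes given, so these counts cannot be set against it.

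Between genotypes, 7 of the 8 genes were past 1.5-fold higher in the Brca2mut/WT control than in the wild-type control and 0 lower, against 2.15% and 1.84% of 8196 genes. The log2 ratios were 3.02 (2.62 to 3.45) for Myh11, 1.97 for Cnn1, 1.49 (1.43 to 1.54) for Acta2, 1.41 for Mylk, 1.17 for Tagln, 1.06 for Oxtr and 0.95 for Myl9, and 0.40 for Tpm2, the gene not past 1.5-fold. After HU 1 gene, Oxtr, was past 1.5-fold higher in Brca2mut/WT (0.92, 0.61 to 1.22) and 0 were lower, against 4.51% and 3.48% of 8223 genes. Acta2 (0.41), Tagln (0.27), Cnn1 (0.33), Myl9 (0.56) and Tpm2 (0.30) were slightly higher, Myh11 level (0.01) and Mylk slightly lower (-0.18). The wider filter gave 4 and 6 genes in the control and HU comparisons, and the second count was 5 without the first tag pool of wild-type HU. These counts too have no share over all genes beside them.

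**Figure D4:**
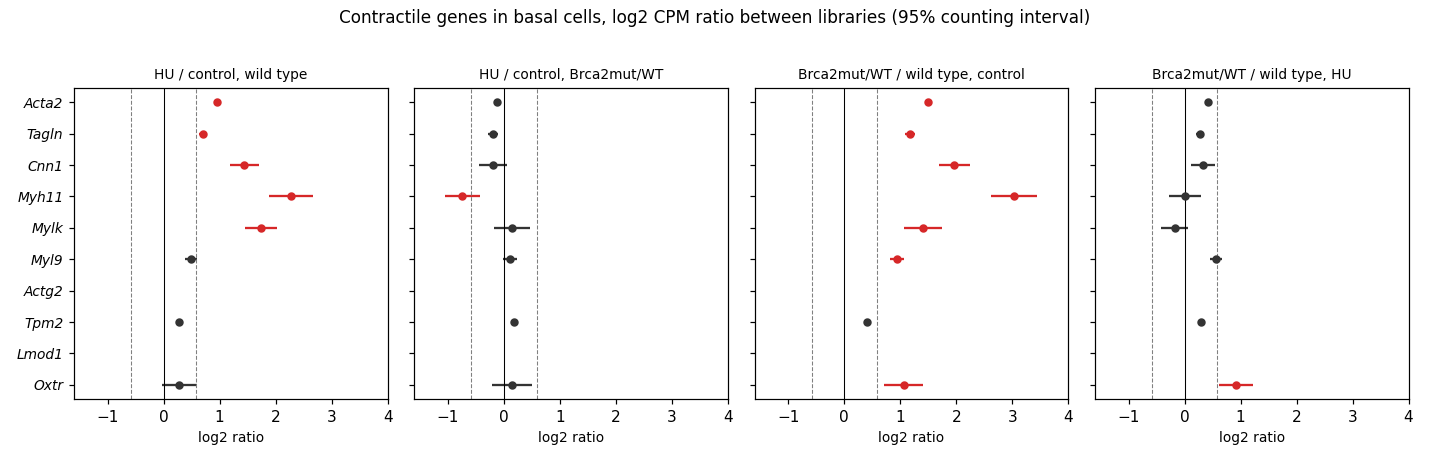
Log2 CPM ratio of the 8 contractile genes with at least 10 CPM in basal cells for the 4 pairs of libraries, with 95% counting intervals; red marks genes past 1.5-fold (dashed lines). Myh11 has the largest ratio in 2 pairs, 2.27 and 3.02, and Tpm2 stays between 0.17 and 0.40 in all 4.

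The makeup of the basal class also differed between libraries. Cells with Krt14 of 5000 CPM or more were 46.3%, 53.3%, 37.5% and 31.2% of the basal class, and the squamous share, given above, was highest in the wild-type control. After HU, wild-type basal cells had a larger Krt14-high share and a smaller squamous share (14.7%, against 24.8% without HU). In them 5 contractile genes were past 1.5-fold higher. In Brca2mut/WT both shares were smaller after HU. There Acta2, Tagln, Cnn1 and Myh11 were lower, and Mylk, Myl9, Tpm2 and Oxtr slightly higher. Among basal cells with Krt14 under 5000 CPM, Acta2 was 691, 1312, 1627 and 1370 CPM, Tagln 280, 484, 550 and 416 CPM and Myh11 9.51, 43.8, 60.03 and 31.7 CPM, so the wild-type control was again the lowest. This did not hold at every Krt14 level. At 500 to 1000 CPM of Krt14, Acta2 was 963, 648, 728 and 1318 CPM, Tagln 219, 281, 72.7 and 341 CPM and Myh11 23.6, 36.6, 6.28 and 26.0 CPM. At 1000 to 2000 CPM of Krt14 the wild-type control was the lowest for each of these genes. The part of the makeup in the ratios was not tested.

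Antibody tags place cells of each library in 4 pools whose identity is not known. Between 548 and 771 kept cells per library had no single tag and are in no pool. Of the 16 pools, 14 had at least 20 basal cells (the others, both of Brca2mut/WT libraries, had 1 and 11). Acta2 in pools ranged from 38.9 to 569 CPM within the wild-type control, 452 to 1289 CPM within wild-type HU, 249 to 1125 CPM within the Brca2mut/WT control and 735 to 818 CPM within Brca2mut/WT HU. The pools of the first 3 libraries thus overlapped. The 3 pools of Brca2mut/WT HU with at least 20 basal cells lay inside the Acta2 ranges of wild-type HU and the Brca2mut/WT control. They lay above every pool of the wild-type control for Acta2, Myh11 and Oxtr. For every other gene of the set the ranges overlapped, as for Tagln (204 to 294 against up to 205 CPM) and Tpm2 (703 to 1003 against up to 1161 CPM). How often such a gap occurs over all genes was not counted. The Brca2mut/WT HU pool of 11 cells had 2790 CPM of Acta2. Tagln ranged from 0.794 to 205 CPM between pools of the wild-type control, and from 32.04 to 306 CPM between those of the Brca2mut/WT control. Among the 14 pools, the lowest Acta2, Tagln and Tpm2 (507 CPM) all fell in the second pool of the wild-type control, where 69.8% of 43 basal cells had Krt14 of 5000 CPM or more. The highest of the 14, 1289, 596 and 1413 CPM, fell in the first pool of wild-type HU, where 22.0% of 100 basal cells did. Other pools did not keep this order. In the second pool of wild-type HU the share was 65.7% and Acta2 694 CPM. In the third pool of the wild-type control it was 19.0% and Acta2 491 CPM. Among the 13 basal cells of the second wild-type control pool with Krt14 under 5000 CPM, Acta2 was 96.9 CPM, again the lowest of the 14. The part of this share in the pool levels was not tested.

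**Figure D5:**
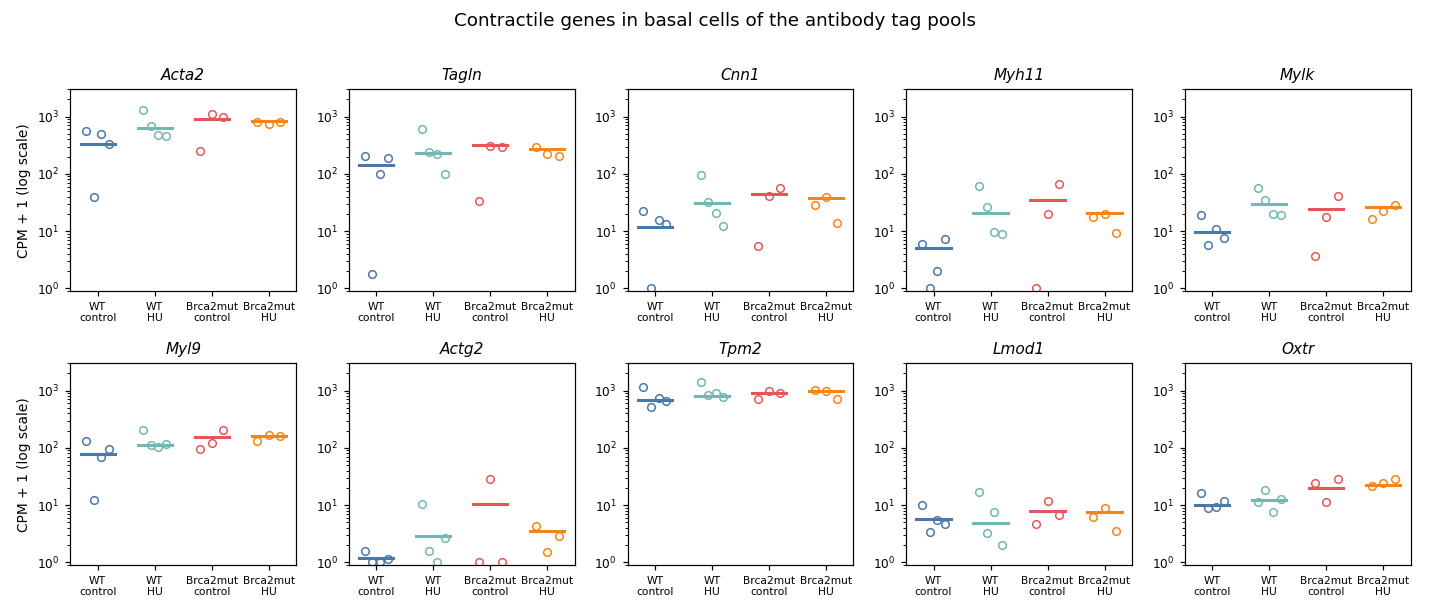
Basal level of each contractile gene, as CPM + 1 on a log scale, in the 14 antibody tag pools with at least 20 basal cells (open points) and in the whole library (bars). Acta2 spans 38.9 to 569 CPM over the 4 pools of the wild-type control and 735 to 818 CPM over the 3 pools of Brca2mut/WT HU.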

How the data were processed

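The deposited values are UMI counts per gene and cell, whole numbers without normalization, made by the authors with Cell Ranger on mm10 from 10x Chromium version 3 libraries; the processing notes name Cell Ranger 6.0.2 and the matrix headers 6.1.1. Counts of 4 antibody tags were left out of gene totals. The cell filter used the limits stated by the study. The study reports more cells after filtering than the 17360 kept here, and more than all 33268 in the 4 libraries. The cells kept here are therefore not the study's set. No doublet caller was run; 10 to 65 kept cells per library carried several tags, and single-tag cells were an alternative. Counts were summed per library and class. Lineages were compared with the edgeR 4.0.16 quasi-likelihood test (TMM scaling, filterByExpr, library as a block, Benjamini-Hochberg over all genes tested, call under 0.05), with DESeq2 1.42.0 as an alternative, in R 4.3.3; with 4 libraries per side, p-values measure the spread between libraries that also differ in genotype and treatment. Conditions had 1 library each, so exact conditional Poisson 95% intervals were given. Both methods were tested on simulated data. Cells were thinned without replacement. Named were the 10 members, the 3 largest and the smallest log2 difference of each list among genes with 10 CPM in a lineage, and the 5 most and least correlated genes. Srf and Myocd were named besides. Some results that this rule covers are not reported here. Members and lists were chosen with earlier results of these data known. Loci are from GENCODE M21. Python 3.11.15 and matplotlib 3.10.9 were used.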

Additional observations from a re-analysis of the deposited data

Results flagged for a closer look

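Of the 8 genes with at least 10 CPM in basal cells, 3 had log2 ratios of HU over control of opposite sign in the 2 genotypes, with counting intervals on either side of 0. Acta2 had 0.94 in wild type and -0.13 in Brca2mut/WT, Tagln had 0.70 and -0.19, and Myh11 had 2.27 and -0.74. Actg2, under that level, had 3.29 and -1.92, the second from 64 control UMIs of which 60 were in 1 cell. With 1 library per condition the difference between genotypes was not tested. The intervals cover counting error only, and the values with the wider cell filter and without single tag pools are given with each comparison.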

How the results depend on the processing

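The counts of called genes between lineages changed most with the Krt14-low basal-marker cells. This alternative was added after the data were seen, so its differences are given without calls. Without those cells, Acta2 went from -3.18 to -0.13 in HR+ against HR- luminal cells. In Tmigd1/Sez6-high against other luminal cells Cnn1 (0.026) and Myh11 (0.28) changed sign. The wider cell filter gave 1 higher in HR+ cells. Leaving out each library gave 8 to 9 genes higher and 1 lower in basal against HR- luminal cells, 0 to 1 higher and 8 lower in HR+ cells, 1 higher and 5 to 7 lower in Tmigd1/Sez6-high cells, and 0 higher and 7 to 9 lower in cycling basal cells. With no replicate block, cycling basal cells had 4 lower; the other lineage counts stayed within 1.5 times.

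For HU against control in wild-type basal cells the count past 1.5-fold higher was 2 with the wider cell filter (Tagln -0.0761), and 4 to 6 higher and 0 lower on leaving out tag pools. In Brca2mut/WT it was 3 higher and 0 lower with the wider filter (Myh11 0.49), 1 higher as a mean over cells, 0 lower with the looser lineage cut or with Krt14-low cells added, and 2 lower with single-tag cells, the stricter cut, without cycling cells, without squamous cells, with Krt14 under 5000 CPM or with no minimum level; leaving out tag pools gave 0 to 3 higher and 0 to 2 lower (Myh11 from -1.14 without pool 2 of HU to 0.63 without pool 4 of the control). Brca2mut/WT against wild type gave 4 higher in controls with the wider filter, and 5 to 8 higher and 0 lower on leaving out pools. After HU it gave 6 with the wider filter, 2 with the looser cut, with Krt14-low cells added, as a mean over cells or with no minimum, 0 with Krt14 under 5000 CPM, and 1 to 5 higher and 0 lower on leaving out pools. The share over all genes is not given for the alternative settings, here or in the Results, so their counts cannot be set against it. No paired analysis was possible because each condition is 1 library and the tags have no key. The cause was not tested. Members detected in at least 10% of basal cells of every library were 3 when thinned and 5 unthinned. Depth limits Actg2 and Lmod1 in basal cells, at under 10 CPM.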
